A study of Homo sapiens with 6 samples.

Results

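The 10 genes described here encode the pyruvate dehydrogenase complex and the enzymes that switch it off and on. They were chosen by name: the catalytic and scaffold subunits PDHA1, PDHB, DLAT, DLD and PDHX, the kinases PDK1, PDK2, PDK3 and PDK4, and the phosphatase PDP1. All 10 were found among the 38100 genes of the count table, and all 10 were among the 17720 genes with enough counts to be tested. RNA sequencing was performed in HK2 cells, an immortalized line derived from human proximal tubule epithelium, labelled wild type. Libraries were prepared from poly(A) RNA. The 3 AdCtrl samples carried a control adenovirus and the 3 AdSIRT4 samples (AdSirt4 in the labels) an adenovirus that overexpresses SIRT4. Both groups had been stimulated with TGF-β1, so no unstimulated cells enter the comparison. All titles name HK2, while the cell line field of the labels runs from HK2 to HK7 over the 6 samples, and all were taken here as HK2. The study's checklist calls replicates of cultured cells technical, its methods speak of independent experiments, and the labels name no separate cultures, so p-values measure only the spread between these samples, which may be technical.

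The pyruvate dehydrogenase complex sits in the mitochondrial matrix and turns pyruvate into acetyl-CoA, which links glycolysis to the citric acid cycle. Pyruvate dehydrogenase kinases phosphorylate its E1 alpha subunit and shut the complex down, and the phosphatases remove that phosphate again. Proximal tubule cells in the kidney burn mainly fatty acids, and PDK4 is a kinase well known to be induced when fat is the fuel. SIRT4 is a mitochondrial sirtuin with reported lipoamidase activity toward the lipoyl groups of DLAT. That activity concerns the protein, whereas only transcript levels were measured here.

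The libraries held 41537353 to 85684748 counts. In CPM (counts scaled to library size by the TMM method), SIRT4 itself measured 0.573, 1.11 and 1.11 in AdCtrl against 51.2, 92.7 and 84.0 in AdSIRT4, and the groups did not overlap. It rose by 6.36 on the log2 scale (SE 0.357, adjusted p = 0.00801, edgeR's quasi-likelihood test). Epithelial markers were present, with KRT8, KRT18, EPCAM and PAX8 each above 100 CPM on average, but CDH1 stood at 0.664 CPM in AdCtrl. Of 9 proximal tubule markers only GGT1 and SLC5A2 averaged 1 CPM or more, and LRP2, AQP1, ANPEP and HNF4A were too low to be tested. The proximal tubule markers summed to 229 to 251 CPM in AdCtrl and 213 to 223 CPM in AdSIRT4, without overlap and nearly all of it GGT1, and the part of this difference in the results was not tested. Summed fibroblast markers were 41.7 to 45.1 CPM in AdCtrl and 39.9 to 40.8 CPM in AdSIRT4, also without overlap. The part of that difference in the results was not tested either. Summed endothelial markers stayed at 0.522 CPM or less. Summed immune markers were 34.3 to 39.6 CPM and 38.3 to 49.4 CPM, nearly all of it CD68, and CD3E was at 0 in all samples. AdSIRT4 replicate 1 stood apart from the other 2 libraries of its group. Over all tested genes with a length, its log2 difference from the mean of replicates 2 and 3 went down with transcript length (Spearman's rho -0.59 across 17558 genes, which are not independent replicates). Results are therefore given with and without that library.

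Across the 10 genes, the 2 largest differences lay in opposite directions and both in kinases. PDK1 was 54.0% higher and PDK4 was 40.8% lower in the mean CPM of the AdSIRT4 samples, and in both genes the groups did not overlap. No other member differed by more than 13.2% between group means. In such bulk RNA, a lower level in every cell and a level lost in some cells cannot be told apart. At an adjusted p under 0.05 in edgeR's quasi-likelihood test, 0 of 10 members passed, against 2 of all 17720 tested genes (0.0113%). Those 2 genes were SIRT4 and ADAMTS1, of which ADAMTS1 was named after its value was seen. Adding a block for the replicate number left 1. At an unadjusted p under 0.05, 2 of 10 members passed, PDK1 and PDK4, against 7.93% of all tested genes. The groups did not overlap in CPM for 3 of 10 members, PDK1, PDK2 and PDK4, against 19.4% of all tested genes. Without AdSIRT4 replicate 1, 6 of 10 members passed at an unadjusted p under 0.05, against 24.3% of the genes in that fit, and with limma voom and sample weights 4 of 10 passed, against 27.3%. Without AdSIRT4 replicate 1, both PDK1 and PDK4 passed at an adjusted p under 0.05, which made 2 of 10 members against a background of 6.71%. The same 2 members passed with DESeq2, against 1.33% of 15995 genes, and with limma voom and sample weights, against 9.51% of all tested genes. Whether PDK1 and PDK4 are counted as changed thus depended on the test and on 1 library.

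**Figure D1:**
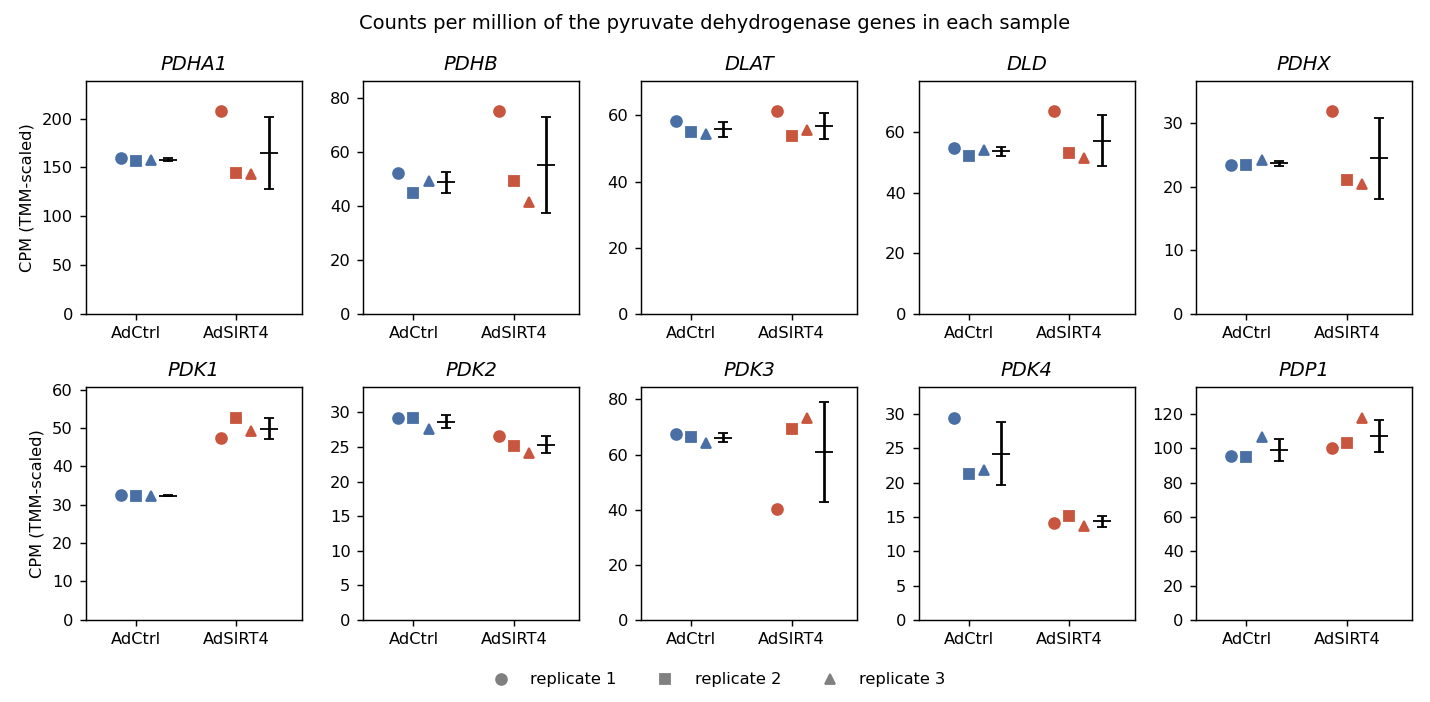
TMM-scaled CPM (y axis, from 0) of the 10 genes in each sample, with AdCtrl in blue and AdSIRT4 in red. Circles, squares and triangles are replicates 1, 2 and 3, and the black mark and bar give the mean and SD (n = 3). PDK1 lay between 32.2 and 32.5 CPM in AdCtrl and between 47.3 and 52.7 CPM in AdSIRT4, while PDHA1, PDHB, DLAT, DLD and PDHX were highest in AdSIRT4 replicate 1.

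PDK1, the kinase best known as a target of hypoxia signalling, measured 32.5, 32.3 and 32.2 CPM in AdCtrl and 47.3, 52.7 and 49.3 CPM in AdSIRT4. Every AdSIRT4 sample was above every AdCtrl sample, and the control replicates were almost equal. The log2 fold change was 0.62 (SE 0.0884, unadjusted p = 0.000189, adjusted p = 0.239, edgeR's quasi-likelihood test). Leaving out 1 sample at a time kept it between 0.59 and 0.65, and without AdSIRT4 replicate 1 the adjusted p was 0.000309 by the edgeR test. Over all alternatives the adjusted p of PDK1 from edgeR, DESeq2 or limma ranged from 1.91e-08 to 0.971. The exact permutation test over samples gave p = 0.1, the smallest that 3 against 3 samples allow.

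The per-length values of PDK1 separated the groups less well than its counts. In FPKM, the deposited per-length unit, it stood at 3.32, 4.03 and 4.91 in AdCtrl and at 4.76, 5.79 and 5.21 in AdSIRT4, so that AdCtrl replicate 3 was above AdSIRT4 replicate 1. The transcript length implied by dividing counts by FPKM also varied. For PDK1 it was 9.86, 8.10 and 6.71 kb in AdCtrl and 9.32, 9.16 and 9.60 kb in AdSIRT4. Its highest implied length was 1.47 times its lowest, and for the other 9 members that ratio was 1.12 or less. On the log2(FPKM + 1) scale the difference of PDK1 was 0.31, and on the log2(FPKM + 0.1) scale it was 0.37. PDK1 did not pass at an unadjusted p under 0.05 in any of the 4 limma fits on FPKM, with p from 0.0548 to 0.0673, whereas PDK4 passed in all 4.

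PDK1 lies on chromosome 2 (chr2:172555373-172724312 in GRCh38.p14, plus strand), and RefSeq lists a pair of starts for it. Bases before both starts are shown because PDK1 is the member with the smallest p, with matches to the motifs searched in capitals. The first sequence is chr2:172555123-172555372, the 250 bases before the first start, and its capitals mark a CCAAT box on the minus strand. The second is chr2:172555840-172555968, the first 129 of the 250 bases before the second start, where the capitals mark GC boxes (GGGCGG on either strand). The third is chr2:172556062-172556089, the last 28 bases before the second start, which GENCODE annotates as untranslated exon of a transcript that starts further upstream. Its capitals mark ACGTG, the core of a hypoxia response element, on the minus strand.

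PDK1, before the first start: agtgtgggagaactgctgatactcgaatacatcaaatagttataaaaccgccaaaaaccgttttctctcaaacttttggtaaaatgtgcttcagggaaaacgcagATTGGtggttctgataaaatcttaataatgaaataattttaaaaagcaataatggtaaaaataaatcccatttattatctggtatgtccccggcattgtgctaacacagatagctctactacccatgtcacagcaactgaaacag
PDK1, before the second start: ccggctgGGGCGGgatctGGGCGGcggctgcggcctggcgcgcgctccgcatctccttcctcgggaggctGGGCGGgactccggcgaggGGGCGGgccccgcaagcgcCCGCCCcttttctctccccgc
PDK1, last bases before the second start: ctgctgcccgcCACGTccctCACGTacc

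The 250 bases before the second start held 2 matches to ACGTG, 17 and 8 bases from the start, and 7 matches to GGGCGG. Neither motif overlapped the other there. Among 35116 RefSeq promoters of the same length, counted on both strands, 18.5% held ACGTG and 42.6% held GGGCGG. Neither PDK1 window held GCGTG (32.2% of promoters), AGGTCA (12.1%) or GTAAACA (2.98%). Such matches describe letters and do not show binding.

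PDK4, the kinase associated with fasting and fatty acid use, was the member furthest below its control level. It measured 29.5, 21.3 and 21.9 CPM in AdCtrl and 14.1, 15.2 and 13.7 CPM in AdSIRT4. Every AdSIRT4 sample was below every AdCtrl sample, and AdCtrl replicate 1 was the highest of the 6. The log2 fold change was -0.76 (SE 0.147, unadjusted p = 0.00136, adjusted p = 0.469, edgeR's quasi-likelihood test). It stayed between -0.84 and -0.59 when 1 sample was left out at a time. Without AdSIRT4 replicate 1 it was -0.75 with an adjusted p of 0.0199 by the edgeR test, within a range from 0.00302 to 0.971 over all alternatives. Its FPKM values told the groups apart as well, at 7.20, 5.07 and 5.55 against 3.19, 3.71 and 3.40. The lowest count behind any of these values was 551.

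PDK4 lies on the minus strand of chromosome 7 (chr7:95583499-95596516), and the 250 bases before its start (chr7:95596517-95596766) are shown to set beside those of PDK1. The sequence reads along the gene's own strand. The capitals mark 2 GC boxes (GGGCGG) and 1 CCAAT box on the opposite strand, the latter a motif found in 11240 of the 35116 promoters.

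PDK4, before its start: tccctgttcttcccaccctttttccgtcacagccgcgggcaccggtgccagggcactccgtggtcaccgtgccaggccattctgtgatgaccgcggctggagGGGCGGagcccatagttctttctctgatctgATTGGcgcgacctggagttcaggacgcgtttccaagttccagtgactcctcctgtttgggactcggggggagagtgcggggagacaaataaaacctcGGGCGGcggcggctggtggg

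The nuclear receptor motif AGGTCA and the FOXO motif GTAAACA had no match in this window, which says only that these letters are not in these 250 bases. RefSeq promoters were matched for 9 of the 10 members. The transcript PDK4-AS1 reached at most 19 counts in a library. No overlapping RefSeq gene was found for PDK4, DLD or PDP1.

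PDK2, the most widely expressed kinase of the family, measured 29.1, 29.3 and 27.6 CPM in AdCtrl and 26.6, 25.2 and 24.2 CPM in AdSIRT4. The groups did not overlap, but the step between them was small. The log2 fold change was -0.18 (SE 0.0909, adjusted p = 0.683, edgeR's quasi-likelihood test), and -0.22 without AdSIRT4 replicate 1 (adjusted p = 0.0722 by the same test). PDK2 overlaps SAMD14 over 2113 bases. SAMD14 stood at 5.18 to 6.64 CPM, and since no source says that strand was used in counting, reads of the 2 genes may have been mixed where they overlap.

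PDK3, the X-linked kinase, had 67.6, 66.5 and 64.4 CPM in AdCtrl and 40.3, 69.1 and 73.4 CPM in AdSIRT4. AdSIRT4 replicate 1 lay far below all other samples and the remaining pair lay above all controls. The log2 fold change of -0.12 (SE 0.216, adjusted p = 0.867, edgeR's quasi-likelihood test) therefore had no stable direction, and it was 0.10 without AdSIRT4 replicate 1 (adjusted p = 0.249 by the same test). PDK3 has the longest implied transcript of the 10 genes, at 14.3 kb.

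Levels of different kinases can be compared only per length, and so each was expressed as a share of the summed FPKM of all 4. The PDK1 share was 14.2%, 18.6% and 21.2% in the AdCtrl samples and 26.5%, 27.1% and 25.3% in the AdSIRT4 samples. The PDK4 share was 30.9%, 23.4% and 24.0% against 17.8%, 17.4% and 16.5%. For both kinases all samples of one group lay on one side of the other group, whereas the shares of PDK2 (32.8% to 39.8%) and PDK3 (15.9% to 25.4%) overlapped. The ratio of PDK1 to PDK4 was 0.461, 0.795 and 0.884 in AdCtrl and 1.49, 1.56 and 1.53 in AdSIRT4, so that PDK4 led in every control sample and PDK1 in every AdSIRT4 sample. With 1 fixed length per gene in place of the per-sample lengths, the ratio was 0.490, 0.676 and 0.655 against 1.49, 1.55 and 1.60. The ratio joins PDK1 and PDK4, the members with the largest differences, which lay in opposite directions. Its separation of the groups therefore shows those differences again and is no further result. These shares and ratios carry no test.

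**Figure D2:**
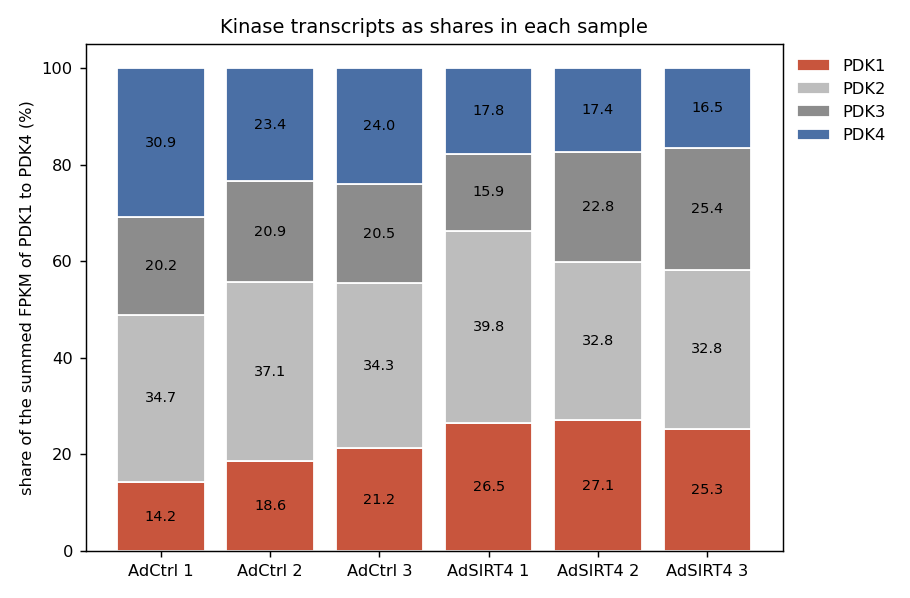
Share of each kinase in the summed FPKM of PDK1 to PDK4 (y axis, percent) in each of the 6 samples, with one stacked bar per sample. The red PDK1 segment spans 14.2% to 21.2% in AdCtrl and 25.3% to 27.1% in AdSIRT4, and the blue PDK4 segment 23.4% to 30.9% and 16.5% to 17.8%.

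PDP1, a catalytic subunit of the phosphatase that reactivates the complex, measured 95.7, 94.7 and 106 CPM in AdCtrl and 100.3, 103 and 118 CPM in AdSIRT4. The groups overlapped, and replicate 3 was the highest of its group in both. The log2 fold change was 0.12 (SE 0.105, adjusted p = 0.775, edgeR's quasi-likelihood test) and 0.16 without AdSIRT4 replicate 1 (adjusted p = 0.201 by the same test). The summed FPKM of the 4 kinases over that of PDP1 was 1.18, 1.13 and 1.01 in AdCtrl and 0.935, 0.995 and 0.829 in AdSIRT4, without overlap. With 1 fixed length per gene it was 1.19, 1.10 and 0.953 against 0.906, 0.995 and 0.842, and the groups overlapped.

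PDHA1, the E1 alpha subunit that the kinases phosphorylate, measured 159, 157 and 157 CPM in AdCtrl and 207, 144 and 143 CPM in AdSIRT4. The AdSIRT4 group straddled the controls, with replicate 1 above and the other 2 below all of them. PDHB, the E1 beta subunit, had 52.3, 44.7 and 49.1 CPM in AdCtrl and 75.0, 49.0 and 41.3 CPM in AdSIRT4. PDHX, which tethers the E3 enzyme to the core, had 23.5, 23.5 and 24.2 CPM against 31.9, 21.1 and 20.4 CPM. In these genes too replicate 1 was the highest of the 6 samples. With all samples, the log2 fold changes were 0.06 (SE 0.159) for PDHA1, 0.18 (SE 0.218) for PDHB and 0.04 (SE 0.180) for PDHX, with adjusted p-values of 0.897, 0.812 and 0.940 in edgeR's quasi-likelihood test.

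DLAT, the E2 acetyltransferase that carries the lipoyl groups, varied least among the subunits, with 58.4, 54.9 and 54.2 CPM in AdCtrl and 61.2, 53.7 and 55.7 CPM in AdSIRT4. Its groups overlapped, with a log2 fold change of 0.03 (SE 0.0928, adjusted p = 0.929, edgeR's quasi-likelihood test). DLD, the E3 dehydrogenase shared with other lipoate-dependent complexes, had 54.8, 52.0 and 54.2 CPM in AdCtrl and 66.8, 52.9 and 51.5 CPM in AdSIRT4. Again only AdSIRT4 replicate 1 lay outside the range of the rest by a wide step, and the log2 fold change was 0.09 (SE 0.121, adjusted p = 0.832, edgeR's quasi-likelihood test).

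The direction of the 5 subunits turned on that library. All 5 log2 fold changes were above 0 with the 6 samples, with a median of 0.06 against 0.02 over all tested genes. All 5 were below 0 without AdSIRT4 replicate 1, at -0.14 for PDHA1, -0.11 for PDHB, -0.04 for DLAT, -0.04 for DLD and -0.20 for PDHX. None passed at an adjusted p under 0.05 in edgeR's quasi-likelihood test with or without that library. Without it, unadjusted p-values from the edgeR fit were 0.0167 for PDHA1 and 0.0131 for PDHX. The per-length ratios of subunits overlapped between the groups, for example PDHA1 to PDHB at 1.37, 1.58 and 1.44 in AdCtrl and 1.25, 1.33 and 1.57 in AdSIRT4.

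**Figure D3:**
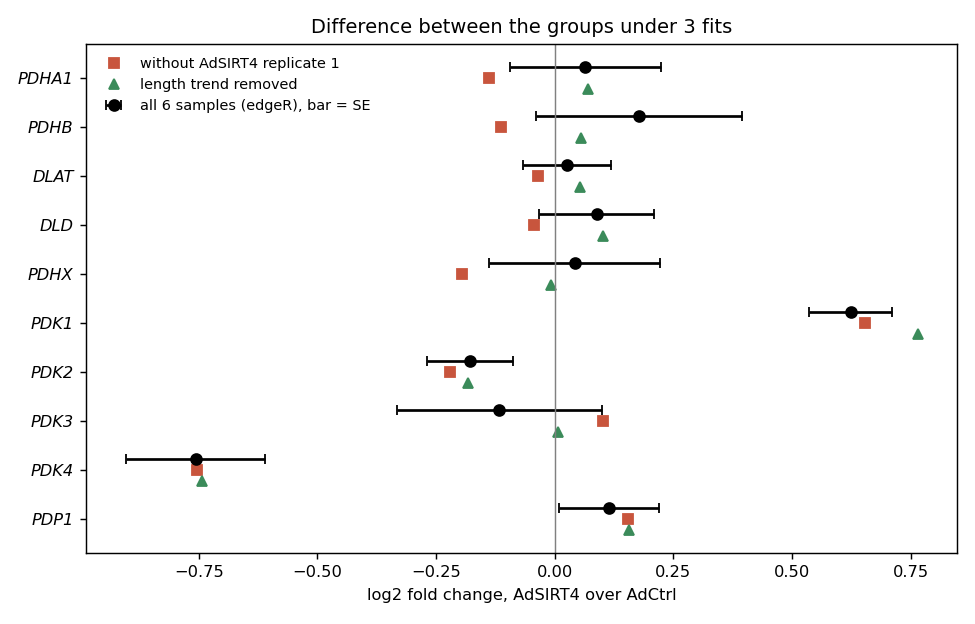
Log2 fold change of AdSIRT4 over AdCtrl (x axis) for each gene from edgeR with all 6 samples (black circles, bars are the SE), without AdSIRT4 replicate 1 (red squares) and with each library's trend on length removed (green triangles). PDK1 lies between 0.62 and 0.76 and PDK4 between -0.76 and -0.74 in the 3 fits, while PDHA1, PDHB, DLAT, DLD, PDHX and PDK3 cross 0.

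Within the 10 genes the deviation of AdSIRT4 replicate 1 went with transcript length. Relative to the mean of replicates 2 and 3 it was 0.74 higher on the log2 scale for PDHB, the shortest at 1.72 kb, and 0.62 higher for PDHX at 2.77 kb. It was -0.82 for PDK3, the longest. Pearson's r with log2 length was -0.90 and Spearman's rho -0.89 over the 10 genes, which share 1 library. PDK1 and PDK4 deviated by only -0.11 and -0.03. With each library's trend on length removed, PDK1 had a log2 fold change of 0.76 (adjusted p = 0.101) and PDK4 of -0.74 (adjusted p = 0.115) in the edgeR fit.

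**Figure D4:**
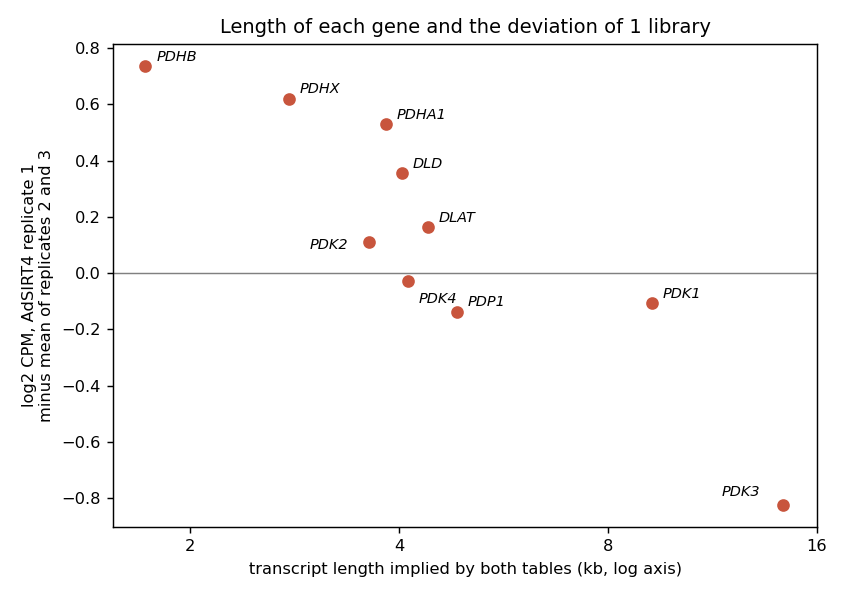
Transcript length implied by the count and FPKM tables (x axis, kb, log scale) against the log2 CPM of AdSIRT4 replicate 1 minus the mean of replicates 2 and 3 (y axis), with one point per gene. Points descend from PDHB (1.72 kb, 0.74) to PDK3 (14.3 kb, -0.82), and PDK4 and PDK1 lie near 0.

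Per length, the 4 kinases were the lowest of the 10 genes in both groups. In AdCtrl, PDHA1 led with a mean of 41.5 FPKM ± 1.43 (SD, n = 3), followed by PDHB with 28.6 ± 2.78, PDP1 with 20.6 ± 1.98, DLD with 13.4 ± 0.728 and DLAT with 12.8 ± 0.540. PDHX had 8.58 ± 0.436, PDK2 8.02 ± 0.0954, PDK4 5.94 ± 1.12, PDK3 4.66 ± 0.105 and PDK1 4.08 ± 0.797 FPKM. Ranges overlapped for DLD and DLAT and for PDK3 and PDK1, so the order within those pairs was not resolved. In AdSIRT4 the first 7 genes kept their order, and below them came PDK1 with 5.26 ± 0.513, PDK3 with 4.32 ± 1.28 and PDK4 with 3.43 ± 0.264 FPKM. PDK4 thus went from rank 8 to rank 10 and PDK1 from rank 10 to rank 8. In AdSIRT4 the range of PDK3 (2.86 to 5.22 FPKM) covered PDK4 and overlapped that of PDK1, and the range of PDHB overlapped those of PDHA1 and PDP1.

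Genes around the complex were read from 4 lists. The first held 12 genes of pyruvate entry, cofactor and lipoate supply, of which 11 were tested, PDHA2 being at 0 in all samples. In edgeR's quasi-likelihood test, 1 was higher and 2 were lower at an unadjusted p under 0.05. Over all tested genes the share that passed was 7.93%. After adjustment 0 passed (1 with DESeq2, against 1.33% of 15995 genes). The lower genes, named after their values were seen, were PC, the pyruvate carboxylase, at -0.30, and PDP2, the other phosphatase catalytic subunit, at -0.34. With the replicate block the unadjusted p in the edgeR fit was 0.0537 for PC and 0.0152 for PDP2. PDP2 stood at 59.5, 62.9 and 68.2 CPM in AdCtrl and 46.9, 48.9 and 55.0 CPM in AdSIRT4, without overlap. Without AdSIRT4 replicate 1, 6.71% of all genes passed at an adjusted p under 0.05 in the edgeR fit. Of the 11 tested genes of this list, 1 higher and 3 lower passed, and MPC1 and PDP2 were among the lower. MPC1, a subunit of the mitochondrial pyruvate carrier, was then at -0.59. With all 6 samples it was at -0.29 (SE 0.218, adjusted p = 0.745, edgeR's quasi-likelihood test), and the groups overlapped. The list's count of 3 at an unadjusted p under 0.05 ranged from 1 without AdSIRT4 replicate 2 to 6 without AdSIRT4 replicate 1. In the latter fit 24.3% of all genes passed at that threshold, and in the former 1064 of 17962 genes.

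The citric acid cycle, which takes up the product of the complex, was covered by 15 genes, all tested. With all samples 7 were above and 8 below 0, with a median log2 fold change of -0.01. In edgeR's quasi-likelihood test 1 passed at an unadjusted p under 0.05, against 7.93% of all tested genes. CS, the citrate synthase, was at -0.19 and IDH3A, a subunit of isocitrate dehydrogenase, at -0.15, and neither passed. Without AdSIRT4 replicate 1, all 15 were below 0 with a median of -0.14, against a median of -0.00461 over all tested genes. In that fit 5 of 15 passed at an adjusted p under 0.05, all lower, against 6.71% of all genes in either direction. They included IDH2 at -0.26, SUCLA2 at -0.29, SUCLG1 at -0.28 and SDHA at -0.24, named after their values were seen. With all 6 samples these genes were at -0.12, -0.13, -0.07 and -0.05, and in each the groups overlapped in CPM. Their unadjusted p-values were then 0.419, 0.414, 0.673 and 0.737 in edgeR's quasi-likelihood test.

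The sister complexes that use lipoate in the same way, for 2-oxoglutarate, 2-oxoadipate, branched-chain keto acids and glycine, were covered by 13 genes. With all samples 0 were higher and 2 were lower at an unadjusted p under 0.05 in edgeR's quasi-likelihood test, and the median was -0.03. Over all tested genes 7.93% passed at that threshold. DHTKD1, the 2-oxoadipate dehydrogenase, was at -0.42 (SE 0.147, adjusted p = 0.593), OGDH, the 2-oxoglutarate dehydrogenase, at -0.32 (SE 0.122, adjusted p = 0.612), and PPM1K, the phosphatase of the branched-chain complex, at -0.36 (SE 0.175, adjusted p = 0.678) in that test. With the replicate block, OGDH no longer passed (unadjusted p = 0.0516 in the edgeR fit). The list's count of 2 was 0 without AdCtrl replicate 1 or 3 and 1 without AdCtrl replicate 2 or AdSIRT4 replicate 2. Without AdCtrl replicate 2 the 1 gene was AMT, which was higher (0.64, unadjusted p = 0.0381 in the edgeR fit), named after its value was seen. Over all genes, 668 of 18050 passed without AdCtrl replicate 1, 839 of 18232 without replicate 2 and 752 of 18280 without replicate 3. Without AdSIRT4 replicate 2, 1064 of 17962 passed. The list's count was 4 without AdSIRT4 replicate 1, a fit in which 24.3% of all genes passed. Without AdSIRT4 replicate 1, DHTKD1 and PPM1K were lower at an adjusted p under 0.05 in the edgeR fit. Of all genes in that fit 6.71% passed, in either direction.

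Regulators and targets of the PPAR, FOXO, glucocorticoid and hypoxia pathways, through which PDK4 and PDK1 are known to be controlled, were covered by 20 genes, of which 19 were tested. In edgeR's quasi-likelihood test 1 was higher and 2 were lower at an unadjusted p under 0.05, with a median of -0.09. ANGPTL4, a secreted lipase inhibitor and PPAR target, was at 0.148, 0.141 and 0.0779 CPM in AdCtrl and 0.411, 0.325 and 0.258 CPM in AdSIRT4, levels of few counts. ANGPTL4 is the 1 higher gene counted above, and it passed the filter on low counts only through the AdSIRT4 samples. Its log2 fold change of 1.40 (SE 0.400, adjusted p = 0.519, edgeR's quasi-likelihood test) is therefore not evidence of a difference. The lower genes, named after their values were seen, were HIF1A, the oxygen-regulated subunit of the hypoxia factor, and FKBP5, a glucocorticoid target, both at -0.33. With the replicate block neither passed, at an unadjusted p of 0.0588 for HIF1A and 0.0568 for FKBP5 in the edgeR fit. The list's count of 3 was 1 when any AdCtrl library or AdSIRT4 replicate 2 was left out, 7 without AdSIRT4 replicate 1 or 3, and 9 with voom. The shares of all genes that passed were 7.93% in the main fit, 24.3% without AdSIRT4 replicate 1 and 27.3% with voom. Without AdSIRT4 replicate 3, 1501 of 17976 genes passed, and without AdSIRT4 replicate 2, 1064 of 17962. Without AdCtrl replicate 1, 2 or 3, the whole-table counts were 668 of 18050, 839 of 18232 and 752 of 18280. HIF1A measured 912, 838 and 941 CPM in AdCtrl and 620, 734 and 783 CPM in AdSIRT4, without overlap. Its protein was not measured, and any link to the level of PDK1 was not tested.

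**Figure D5:**
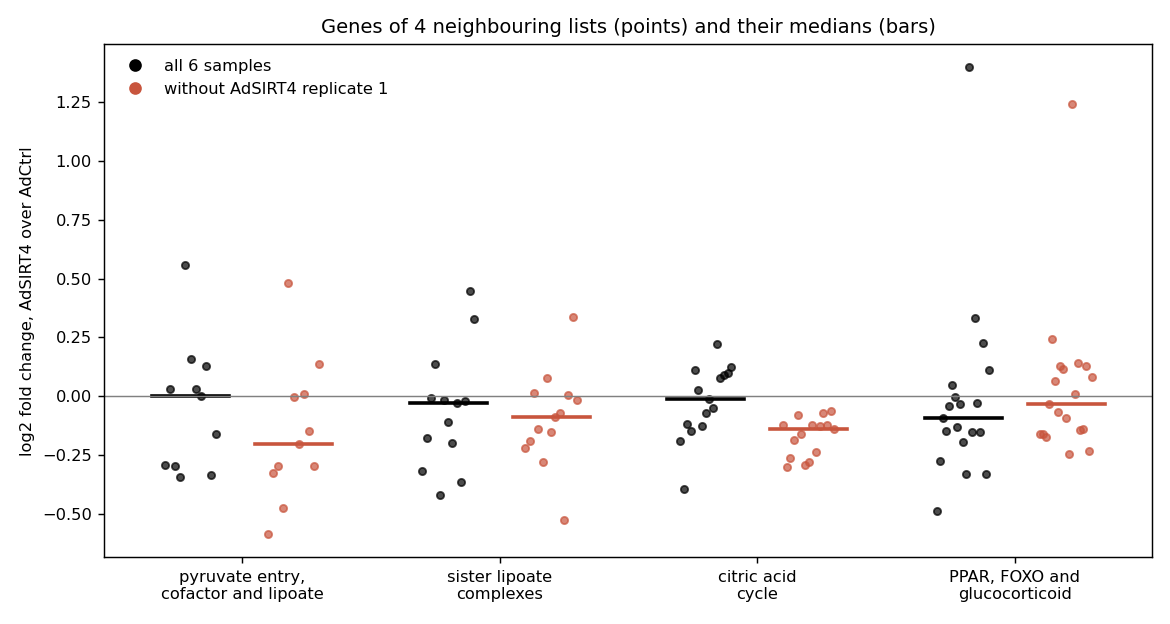
Log2 fold change of AdSIRT4 over AdCtrl (y axis) for the tested genes of 4 lists around the complex, with all 6 samples (black) and without AdSIRT4 replicate 1 (red). Points are genes and bars are medians. In the citric acid cycle list the median moves from -0.01 to -0.14 and all 15 points lie below 0 without that library.

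Among 10354 tested genes with a mean of at least 10 CPM, those whose log2 CPM followed PDK1 most closely over the 6 samples were NUAK2 (Pearson's r = 0.9993), ITGB8 (0.9929), PDXK (0.9927), SIRT4 (0.9907) and VAPB (0.9904). With 6 samples in 2 groups, any gene that separates the groups evenly will score high, and these values are a description. NUAK2, an AMPK-related kinase, measured 92.4, 94.4 and 93.5 CPM in AdCtrl and 138, 154 and 143 CPM in AdSIRT4. PDHX overlaps its neighbour APIP by 460 bases on chromosome 11. APIP stood at 21.5, 20.7 and 21.3 CPM in AdCtrl and at 32.1, 19.2 and 18.8 CPM in AdSIRT4, also highest in AdSIRT4 replicate 1. PDHA1 overlaps MAP3K15 and DLAT overlaps PIH1D2, at no more than 12.8 and 3.49 CPM. PDK1 overlaps PDK1-AS1 over 1092 bases, which include both starts, and RAPGEF4-AS1 over 1124 bases. PDK2 also overlaps PDK2-AS1 over 4499 bases. RAPGEF4-AS1 reached at most 0.0928 CPM, and PDK1-AS1 and PDK2-AS1 had no values of their own. Whether their reads were counted for PDK1 or PDK2 was not tested.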

How the data were processed

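RNA sequencing of 6 HK2 libraries (3 AdCtrl + TGF-β1, 3 AdSIRT4 + TGF-β1) was analysed. The deposited tables give whole-number counts per gene and, in a second table, FPKM values, a unit inferred here because counts divided by these values and the library total give the same length in all libraries, within 5 percent of the median, for 12936 of 15894 genes. Per the submitters' processing notes, which give no role or order, the authors used fastp 0.21.0, HISAT2 2.1.0, StringTie 2.1.5, DESeq2 1.30.1 and hg38. Annotation and strand setting are not given in the sources used here.

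Counts were tested with edgeR 4.0.16 (default filter on low counts with a minimum of 10, TMM, robust quasi-likelihood, R 4.3.3), all 6 samples and group only, with Benjamini-Hochberg adjustment over 17720 genes. DESeq2 1.42.0 and limma 3.58.1 were alternatives, with others of scaling, filter, pseudocount, length trend, sample weights and samples left out. The fits were run on simulated counts that held neither a library skewed by length nor a shared replicate effect. That check therefore does not cover the deviation of AdSIRT4 replicate 1. Same-numbered samples correlated at 0.178, 0.159 and 0.176 in their deviations from group means, and all others at 0.0298 or less. Deviations within a group depend on each other, so these values alone cannot show a pairing. Whether replicate numbers mark a shared batch was not tested, and the replicate block served as an alternative only. No 2 libraries of the same group agreed within counting noise, and pairs across the groups were not compared. Members and lists were chosen with earlier results of these data known. Named genes were all members, SIRT4, per list the genes with an unadjusted p under 0.01 or else the 3 smallest, and the 5 genes that followed PDK1 best, except that some list genes are not reported here. Gene coordinates and promoters are from RefSeq (GRCh38.p14) and untranslated exons from GENCODE.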

Additional observations from a re-analysis of the deposited data

How the results depend on the processing

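PDK1, PDK2, PDK4 and PDP1 kept their direction in all 18 alternatives. PDK1 and PDK4 passed at an adjusted p under 0.05 with DESeq2 and with voom and sample weights (2 members each), and leaving out 1 sample at a time gave 0 to 2 members. At an unadjusted p under 0.05, voom gave 4 members, limma on log2(FPKM + 1) gave 1 (PDK4) when genes under a mean FPKM of 1 were dropped and 1 (PDK4) with the replicate block, and leaving out samples gave 2 to 6. PDK1 passed in none of the limma fits on FPKM. The replicate block in edgeR changed no member's call.

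Over all genes, the 2 calls of edgeR became 212 with DESeq2, 5 with genes of at least 1 count, 4 with at least 10 counts in every sample and 1 with the replicate block. They became 0 with limma on log2(FPKM + 1), with or without the block, 1 with log2(FPKM + 0.1) and 5 when genes under a mean FPKM of 1 were dropped. With the length trend removed there were 12 and, with the block as well, 6. With voom there were 1685, and leaving out 1 sample at a time gave 0 to 1227, the most without AdSIRT4 replicate 1.

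Directions turned for 6 members, and the cause was not tested. Voom gave -0.12 for PDHA1, -0.0415 for PDHB, -0.0445 for DLAT, -0.0241 for DLD, -0.17 for PDHX and 0.0677 for PDK3. Limma on FPKM gave -0.0079 for DLAT with pseudocount 1, with the mean filter and with the block, and -0.0084 with pseudocount 0.1, and for PDHX -0.0032 and -0.0052. Removing the length trend gave -0.0079 for PDHX and 0.0064 for PDK3, and with the block -0.0205 and 0.0085. Leaving out samples spanned -0.14 to 0.16 for PDHA1, -0.11 to 0.35 for PDHB, -0.0358 to 0.0706 for DLAT, -0.0441 to 0.16 for DLD, -0.20 to 0.16 for PDHX and -0.27 to 0.10 for PDK3. The lowest count of a member in a library was 551, and the effect of depth was not tested.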
